A study of Mus musculus with 7 samples.

Results

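The EGR and NR4A genes are 2 families of immediate early transcription factors, and Nab1 and Nab2 encode corepressors that bind EGR proteins. The 9 genes Egr1, Egr2, Egr3, Egr4, Nr4a1, Nr4a2, Nr4a3, Nab1 and Nab2 were chosen by name, each read by the probe set annotated to it alone, and all 9 were among the 13938 genes tested of 19938 genes named on the array. The tissue was long bone enriched for osteocytes, from male mice 39 to 41 weeks old. The 3 knockout mice are labelled DMP1 cre Mbtps1 knockout, and the 4 control mice are labelled wildtype and called littermates. Mbtps1 encodes site-1 protease, a Golgi enzyme that releases membrane-bound transcription factors, and Dmp1-Cre is active mainly in osteocytes and late osteoblasts. Whether the controls carried the Cre or a floxed allele is not given in the sources used here. Bones had been freed of marrow, cut up and treated alternately with collagenase and EDTA before RNA was taken, and each mouse gave 1 array.

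Immediate early genes are switched on within minutes of a stimulus from factors already present in the cell. Egr1 to Egr4 encode zinc finger proteins that bind GC-rich sites. Growth factors and mechanical load induce them largely through serum response factor (SRF), its Elk partners and the ERK kinases. Nr4a1 to Nr4a3 encode orphan nuclear receptors, which parathyroid hormone and cyclic AMP induce in bone cells through CREB. Nab1 and Nab2 close a negative feedback loop, since they silence EGR proteins and Nab2 is itself an EGR target.

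Sequence upstream of the start site is shown because the families differ in the routes that induce them. RefSeq promoter windows (GRCm38.p6) matched 7 of the 9 genes, all but Egr1 and Egr3, and the 250 bases before the start were searched on both strands. The motifs were the cyclic AMP response element half-site TGACG, the CArG box of SRF, the EGR site (GCGTGGGCG or GCGGGGGCG) and the NR4A site AAAGGTCA. Of 32851 windows of this length in the table, 17.8% held a TGACG and 0.688% held 3 or more. A CArG box stood in 1.47%, an EGR site in 3.06% and an NR4A site in 1.34%. The stretches below show the CArG box and half-site of Egr2, the paired half-sites of Nr4a1 and Nr4a3, an EGR site of Nab1, and the whole Nr4a2 window. Capitals mark the matches, and CGTCA is TGACG on the other strand.
Egr2, chr10:67537793-67537822, plus strand: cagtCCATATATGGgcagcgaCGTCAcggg
Nr4a1, chr15:101266611-101266640, plus strand: tgCGTCAatggaaccccgcgtgCGTCAcgc
Nr4a3, chr4:48045087-48045116, plus strand: catgtCGTCAcatTGACGtctcgcattcca
Nab1, chr1:52500534-52500563, minus strand: ggccgcGCGTGGGCGggagccggagcggcg
Nr4a2, chr2:57124004-57124253, minus strand: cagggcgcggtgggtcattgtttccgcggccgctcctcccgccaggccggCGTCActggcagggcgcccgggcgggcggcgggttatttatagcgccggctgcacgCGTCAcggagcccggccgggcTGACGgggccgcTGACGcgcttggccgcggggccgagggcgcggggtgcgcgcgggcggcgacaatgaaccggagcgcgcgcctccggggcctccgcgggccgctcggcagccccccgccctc

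The 3 NR4A genes each held 4 half-sites in their 250 bases. In Nr4a1 they began 233, 213, 69 and 40 bases before the start, in Nr4a2 200, 144, 123 and 111, and in Nr4a3 231, 213, 205 and 147. Egr2 has 5 windows in the table, 3 of them nearly coincident. In the first of those 3 a CArG box began 72 bases before the start, between half-sites at 111 and 55. Egr4 held 2 half-sites, at 177 and 109. Nab1 held 1 half-site, at 123. It also held 3 EGR sites, at 141, 109 and 38, and Nr4a1 held 1, at 60. The Nab2 window held none of the 4 motifs, and no member's window held the NR4A site. A match is a description of the sequence only.

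Egr1 and Egr2 were the members with the lowest signal in knockout relative to control bone, at 2.42-fold and 2.15-fold lower on the log2(intensity + 16) scale. Nr4a1 was 1.77-fold lower. None of the 9 passed an adjusted p of 0.05 in limma over all genes, and 0% of the 13938 genes did. At an unadjusted p under 0.05, 3 of the 9 members (33.3%) were lower and 0 were higher, against 2.71% of all genes lower, 3.77% higher and 6.49% in either direction. In 2 of the 9, Egr1 and Egr2, each knockout lay under each control, as in 2.76% of all genes, and in none did each knockout lie above each control, as in 5.22% of all genes. The members' median log2 fold change was -0.16, and that of all genes was 0.07.

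Egr1, the most widely studied of the EGR factors, read 976, 449, 689 and 1184 in controls 1 to 4. In knockouts 1 to 3 it read 232, 409 and 314. The groups did not overlap, but control 2 lay close above knockout 2. The means were 825 ± 322 (SD, n = 4) and 318 ± 88.2 (SD, n = 3). The log2 fold change was -1.27 (SE 0.28, 95% interval -1.89 to -0.66, limma adjusted p = 0.559). In the two-sided exact permutation test over the 35 splits of the arrays its p was 0.0571, where the smallest p possible is 0.0286. Of the 13938 genes, 6 including Egr1 had a log2 fold change this low or lower.

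Egr2, which directs myelination in Schwann cells and is also expressed in the osteoclast lineage, read 425, 218, 268 and 478 in controls 1 to 4. Knockouts 1 to 3 read 120, 172 and 148. The groups again did not overlap. The order of the arrays was that of Egr1 throughout: controls 4, 1, 3 and 2, then knockouts 2, 3 and 1. The means were 347 ± 124 (SD, n = 4) and 146 ± 26.4 (SD, n = 3), with a log2 fold change of -1.11 (SE 0.24, 95% interval -1.62 to -0.60, limma adjusted p = 0.559). Egr2 ranked 7 and Egr1 12 among all genes by unadjusted p.

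Egr3, which is needed for muscle spindles and acts with Egr2 in lymphocytes, read 202, 129, 141 and 208 in controls 1 to 4. Knockouts 1 to 3 read 164, 160 and 143, all inside the control range. The means were 170 ± 40.8 (SD, n = 4) and 156 ± 11.0 (SD, n = 3). The log2 fold change was -0.09 (95% interval -0.45 to 0.26, limma adjusted p = 0.925). That interval reaches from 0.734 to 1.20 times the control level, so a change of the size seen in Egr1 lies outside it. Controls 4 and 1 were high in Egr3 as in Egr1 and Egr2, while controls 3 and 2 were the lowest of the 7 arrays.

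Egr4 had signal at the low-signal limit of 69.7, at the 1.5 percentile of the genes tested, and passed it only through the knockouts (means 65.9 and 80.1). It read 77.2, 53.8, 66.8 and 66.0 in controls 1 to 4 and 89.9, 73.1 and 77.4 in knockouts 1 to 3. Control 1 lay inside the knockout range. The log2 fold change was 0.23 (SE 0.14, 95% interval -0.07 to 0.54, limma adjusted p = 0.807). At this signal a change in Egr4 would be understated by the offset.

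**Figure D1:**
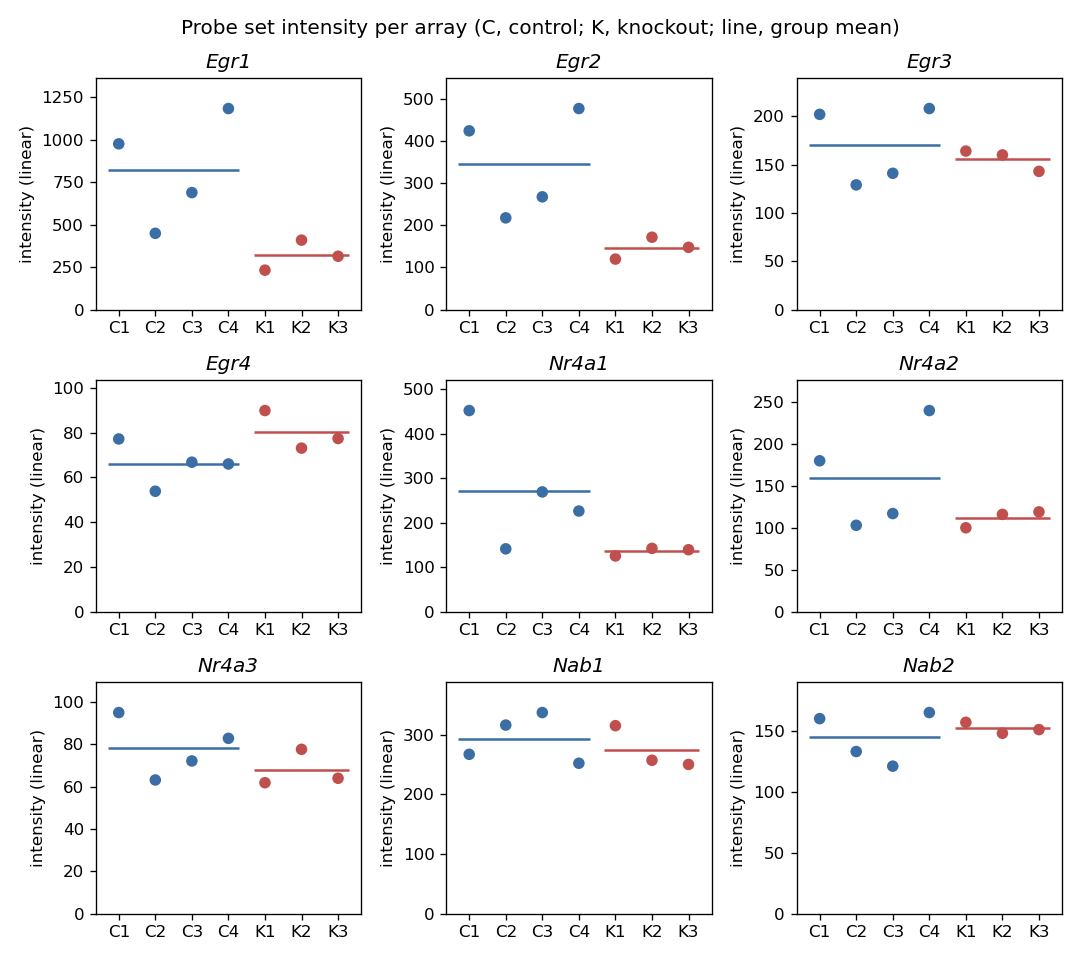
Intensity of the probe set of each member on each array, on a linear axis from 0, with controls 1 to 4 in blue, knockouts 1 to 3 in red and lines at the group means. Egr1 and Egr2 show no overlap between groups, whereas the 3 knockouts of Egr3 (143 to 164) lie inside the control range (129 to 208).

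Among the NR4A genes the largest difference was in Nr4a1. This gene, which encodes Nur77, read 452, 141, 269 and 226 in controls 1 to 4. Knockouts 1 to 3 read 125, 142 and 139, within a 1.14-fold range, whereas the controls spanned 3.21-fold. Control 2 lay between the knockouts and the other 3 controls lay above them. The means were 272 ± 131 (SD, n = 4) and 135 ± 9.19 (SD, n = 3), with a log2 fold change of -0.82 (SE 0.27, 95% interval -1.40 to -0.24, limma adjusted p = 0.638). The difference was -0.55 without control 1 and -1.08 without control 2.

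Nr4a2, which encodes Nurr1, read 180, 103, 117 and 240 in controls 1 to 4 and 100, 116 and 119 in knockouts 1 to 3. Controls 1 and 4 stood above all knockouts, and controls 2 and 3 lay among them. The log2 fold change was -0.40 (SE 0.22, 95% interval -0.88 to 0.08, limma adjusted p = 0.804). Without control 4 it was -0.20. Nr4a3, which encodes NOR-1, passed the low-signal limit only through the controls (means 78.4 and 67.9). It read 95.1, 63.2, 72.2 and 82.9 in controls 1 to 4 and 61.9, 77.7 and 64 in knockouts 1 to 3, and the groups overlapped. Its log2 fold change was -0.16 (95% interval -0.48 to 0.16, limma adjusted p = 0.851).

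Both corepressor genes overlapped between the groups. Nab1 read 267, 316, 337 and 252 in controls 1 to 4 and 315, 257 and 250 in knockouts 1 to 3. Its log2 fold change was -0.09 (95% interval -0.41 to 0.23, limma adjusted p = 0.918). Control 4, the highest array for Egr1, was the lowest control for Nab1. Nab2, the feedback target of EGR proteins, read 160, 133, 121 and 165 in controls 1 to 4 and 157, 148 and 151 in knockouts 1 to 3, all inside the control range. Its log2 fold change was 0.07 (95% interval -0.21 to 0.35, limma adjusted p = 0.924), the same as the median of all genes. The lower bound is 0.867 times the control level.

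**Figure D2:**
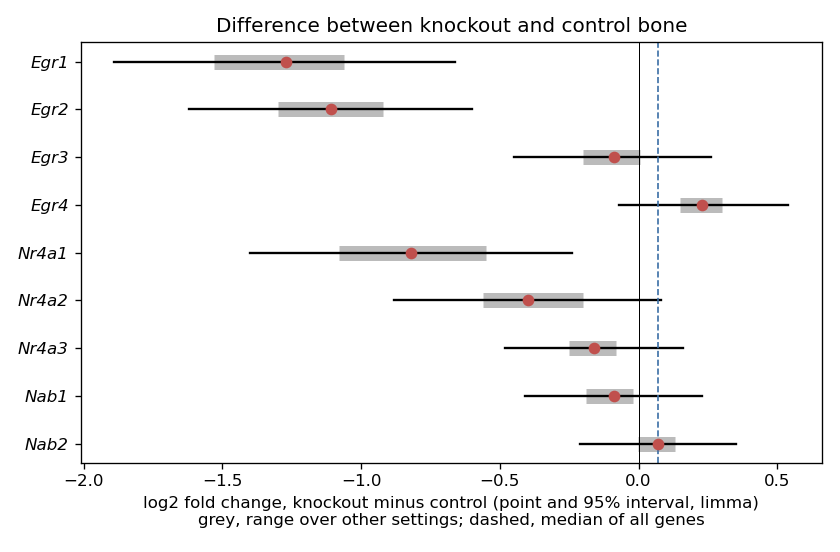
Log2 fold change of each member, knockout minus control, with its 95% interval from limma (black), the range over the other settings run (grey) and the median of all genes at 0.07 (dashed). The intervals of Egr1, Egr2 and Nr4a1 lie below 0, and those of the other 6 members include 0.

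Since a gene past a threshold beside one that is not does not show that they differ, the log2 gap between members on the same array was compared between groups. Pairs within a family and of each EGR gene with each NAB gene were taken, chosen after the values were seen. Of these 18 pairs, the 7 with Egr4 or Nr4a3 were left out, since 1 group mean of each of these genes lies under the low-signal limit, and 11 were tested. The gap between Egr1 and Egr3 was 2.18, 1.68, 2.17 and 2.42 in controls 1 to 4. In knockouts 1 to 3 it was 0.46, 1.27 and 1.05, below each control. The gap was thus 2.11 ± 0.31 (SD, n = 4) and 0.93 ± 0.42 (SD, n = 3), a difference of -1.18. The gap of Egr2 to Egr3 narrowed likewise, from 0.93 ± 0.20 to -0.09 ± 0.28, with no overlap. Egr2 against Nab2 went from 1.12 ± 0.36 to -0.06 ± 0.28.

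These 3 pairs reached the smallest two-sided exact permutation p possible, 0.0286, which is 0.105 adjusted over the 11 pairs. None of the 11 passed after adjustment. The groups did not overlap in 5 of the 11, namely these 3 pairs, Egr1 against Nab2, and Egr2 against Nab1. The difference for Egr1 against Nab2 was -1.35 (exact permutation p = 0.0571, adjusted 0.157). The gap between Egr1 and Egr2 themselves changed by -0.17 and overlapped, at 1.19 ± 0.15 in controls and 1.02 ± 0.15 in knockouts (exact permutation p = 0.229, adjusted 0.315). In the NR4A family the gap of Nr4a1 to Nr4a2 was 0.67 ± 0.62 and 0.25 ± 0.04 and overlapped, control 4 having the lowest value of all arrays (-0.08).

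**Figure D3:**
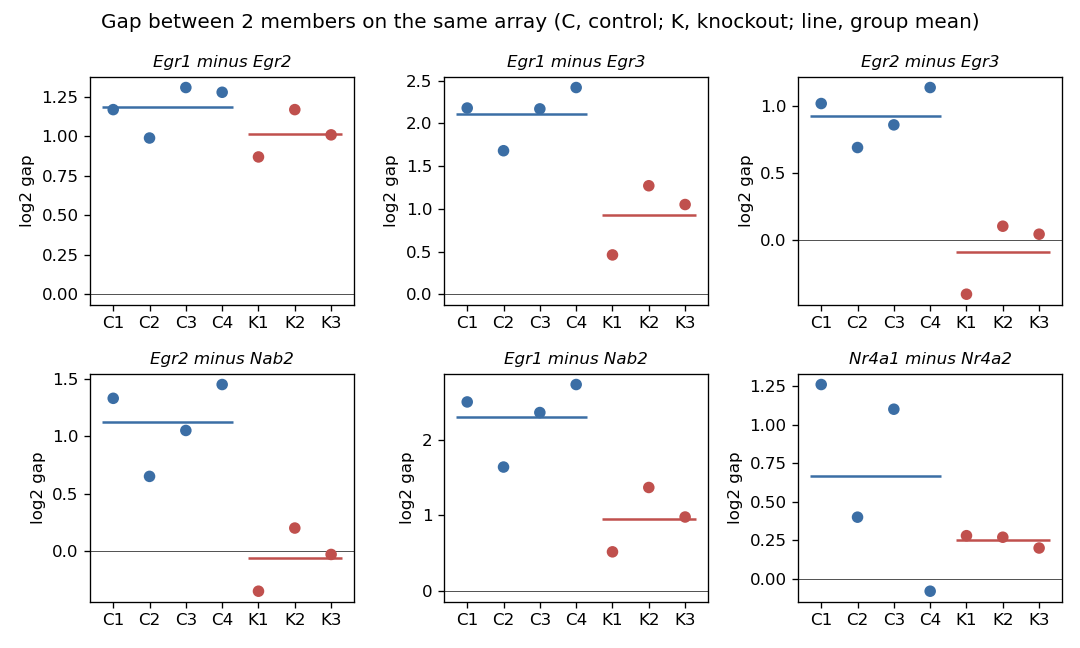
Log2 gap between 2 members on the same array for 6 of the 11 pairs, controls in blue, knockouts in red and lines at the group means. The gaps of Egr1 and Egr2 to Egr3 and to Nab2 separate the groups, and the gap between Egr1 and Egr2 does not.

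The tissue was checked by its markers, and Egr1 and Egr2 ordered the arrays as the mean of the osteocyte markers did. All 9 osteocyte markers listed (Dmp1, Sost, Mepe, Phex, Fgf23, Irx5, Ptprz1, Pdpn and Dkk1) were measured. Of these 7 were lower at an unadjusted p under 0.05 in limma, against 2.71% of all genes. The others were Pdpn (-0.08) and Fgf23, which was above 0 (0.25). The median log2 fold change of all 9 was -1.20. The mean log2 signal of the 9 was 8.65, 8.28, 8.32 and 9.50 in controls 1 to 4. In knockouts 1 to 3 it was 7.56, 7.95 and 7.77. In RNA from whole bone pieces, fewer cells of a type and less RNA per cell cannot be told apart. Markers of other cells differed between the arrays too. Of all genes tested, 32.3% had a log2 fold change below 0, so most lay above it. At an unadjusted p under 0.05 in limma, 2.71% were lower and 3.77% higher. All 6 osteoblast markers measured were below 0, with 2 at an unadjusted p under 0.05 (Postn -0.83 and Sp7 -0.52). So were 5 of 6 endothelial markers, with 2 at that p (Emcn -0.58 and Tek -0.26). All 7 B cell markers measured were above 0, with 2 at that p (Vpreb3 0.63 and Pax5 0.40). Of 8 neutrophil markers 6 were below 0, with 2 at that p (Ngp -0.22 and S100a9 -0.18), and the list means lay between 11.82 and 12.06 on the 7 arrays.

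Control 4 was the highest array for Egr1, Egr2 and the osteocyte marker mean. It was the lowest of the 7 arrays for the erythroid, B cell, megakaryocyte, macrophage and monocyte, T cell and adipocyte lists. Its erythroid list mean was 9.20, against 10.04 to 10.32 on the other 6 arrays. Its B cell mean was 7.83, against 8.39 to 8.94, and its megakaryocyte mean was 9.74, against 10.27 to 10.64. Its macrophage and monocyte mean was 8.55, against 8.93 to 9.13. Its T cell mean was 6.73, against 6.93 to 7.19, and its adipocyte mean was 7.96, against 8.0 to 8.85. The part of these differences in the Egr1 and Egr2 values was not tested. Without control 4 the log2 fold changes were -1.07 and -0.94.

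Relative to the osteocyte marker mean on the same array, a measure chosen after the values were seen, Egr1 and Egr2 overlapped between the groups. Egr1 lay 0.58 to 1.31 above that mean in controls and 0.40 to 0.78 above it in knockouts, in log2 units. Egr2 ranged from -0.55 to 0.14 in controls and from -0.48 to -0.39 in knockouts, and Nr4a1 from -1.58 to 0.22 and from -0.64 to -0.42. Nab2 was higher in each knockout on this measure, at -2.0 to -1.06 in controls and -0.59 to -0.12 in knockouts. Egr3 and Nr4a2 did not overlap either and were also higher in knockouts, by 0.84 and 0.53. So were Egr4 and Nr4a3, by 1.16 and 0.77, with a group mean under the low-signal limit in each. On this measure 91.8% of the 13929 genes outside the marker list were higher in each knockout than in each control, so these 5 members stand with the background. The part of osteocyte content in the lower Egr1 and Egr2 signal was not tested.

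**Figure D4:**
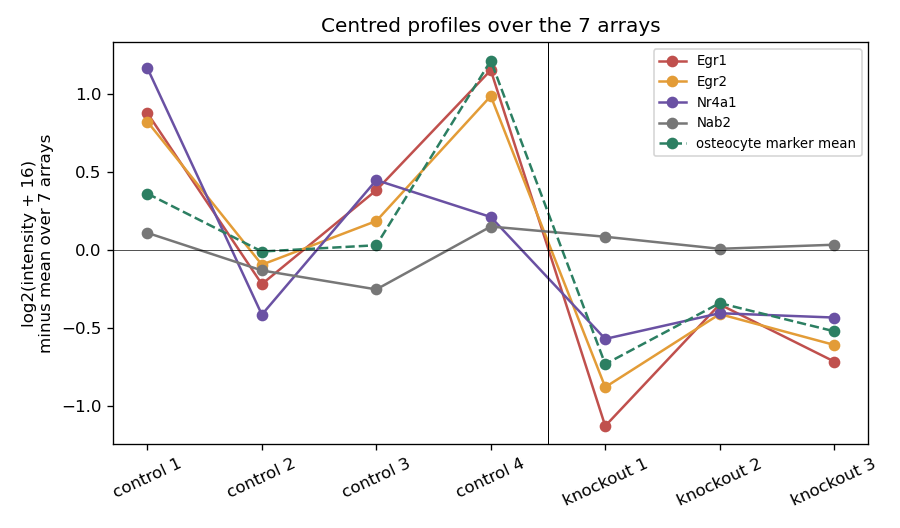
Log2(intensity + 16) of Egr1, Egr2, Nr4a1 and Nab2 and of the mean of 9 osteocyte markers, each minus its mean over the 7 arrays. Egr1, Egr2 and the marker mean order the arrays identically, with control 4 highest and knockout 1 lowest, and Nab2 stays nearly flat.

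Controls 3 and 4 stood at opposite ends of the arrays in the quartiles of intensity. The first quartile was 61.0 in control 4 and 40.5 in control 3, and it lay between these on the other 5 arrays. The third quartile ran the other way, lowest in control 4 (201.9) and highest in control 3 (223.1). Nab2 and Egr3 were highest in control 4 and low in control 3, and the part of this array difference in their values was not tested. With both of these controls left out, the log2 fold change was -1.06 for Egr1, -1.0 for Egr2 and -0.84 for Nr4a1, and 2 genes passed the adjusted threshold, none of them members. Mbtps1 itself read 131 to 162 in controls and 115, 107 and 154 in knockouts 1 to 3 (log2 fold change -0.23, limma adjusted p = 0.807), so knockout 3 lay in the control range. The exons under its probe set were not examined, so this value does not check the labels.

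Genes of the inducing routes had medians close to that of all genes. Of 15 genes of the SRF, Elk and ERK route 10 were measured, and none had an unadjusted p under 0.05 in either direction in limma (median log2 fold change 0.03). Srf, which encodes the factor that binds CArG boxes, had a log2 fold change of 0.26 (SE 0.16). The ERK kinase kinase gene Map2k2 had 0.29 (SE 0.14), the SRF coactivator gene Mrtfa 0.26 (SE 0.18) and Elk1 0.14 (SE 0.12). Of 14 genes of the parathyroid hormone, cyclic AMP and CREB route 12 were measured, with none at an unadjusted p under 0.05 and a median of 0.02. The receptor gene Pth1r read 114 to 209 in controls and 127, 158 and 99.0 in knockouts 1 to 3 (log2 fold change -0.39, SE 0.19). The phosphodiesterase genes Pde4b and Pde4d had 0.17 and 0.11, and the CREB coactivator gene Crtc1 had 0.21. These are RNA levels, and phosphorylation of the proteins was not measured.

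Of 14 genes known as EGR targets 9 were measured. At an unadjusted p under 0.05 in limma, 1 was lower, against 2.71% of all genes. That gene was Igf2, a growth factor gene, which read 177, 113, 159 and 171 in controls 1 to 4 and 122, 103 and 101 in knockouts 1 to 3 (log2 fold change -0.44, SE 0.15, limma adjusted p = 0.651). Control 2 lay inside the knockout range. Icam1, an adhesion molecule gene (0.20), Pdgfb, a platelet-derived growth factor gene (0.17), and Plau, which encodes urokinase (-0.16), did not pass. The list's median was -0.04. For the NR4A targets no description of the list is possible, since only Slc6a3 of 9 was measured (log2 fold change 0.18, SE 0.15). The receptors Rxra (-0.12) and Rxrb (0.14), which pair with Nurr1 and Nur77, did not pass either.

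Of 28 other immediate early genes all were measured (median log2 fold change -0.38). At an unadjusted p under 0.05 in limma, 12 were lower and 0 higher, against 2.71% and 3.77% of all genes. The 4 with the smallest p were Klf4 (-0.79), Atf3 (-1.55), Fosb (-1.52) and Jun (-0.99), all transcription factor genes. The list's mean log2 signal was 8.18 to 8.72 in controls and 7.94 to 8.26 in knockouts, so the groups overlapped.

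By the root mean square difference of centred log2 values over the 7 arrays, Egr2 was closest to Egr1 (0.150), and the median of all genes was 0.827. Outside the 9 members, some genes were skipped by the form of their symbol, as described below. The 5 genes nearest to Egr1 among the rest were Fos (0.196), Jun (0.198), Phex (0.228), Fat1 (0.237) and Plod2 (0.242). Fos read 660 to 1649 in controls and 485 to 738 in knockouts. Plod2, a collagen lysyl hydroxylase gene, read 282 to 789 in controls and 131 to 251 in knockouts. The 5 nearest to Nr4a1 were Ptgs2 (0.285), Eif4a3l1 (0.309), Junb (0.318), Ldlrad4 (0.345) and Serpinf1 (0.348). Ptgs2, which encodes the inducible cyclooxygenase, had its highest value in control 1 (452), as Nr4a1 did. Nab2 varied little, and its 5 nearest genes, Fzd6, Msgn1, Myl3, Ccdc88b and Sbsn, were all within 0.034 of it, in a measure whose median over all genes was 0.228.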

How the data were processed

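RNA of 7 arrays, 30 ng each, was labelled with a NuGEN kit per the labels' protocols. The authors deposited linear intensities per probe set, with a column for each array. The submitters' processing notes name PLIER and Affymetrix Expression Console 1.4. The sources used here give no settings, background correction or genome build. No depth applies to arrays, and their small number limits the precision.

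Groups came from the sample titles. Only probe sets naming 1 gene were used (21789 of 35556, with 1621 naming several and 12146 unnamed here), in the platform annotation. Checked by Entrez identifier against RefSeq, 0 symbols changed. Each gene took its probe set with the highest mean. Genes whose mean log2 signal was below 6.42 (intensity 69.7), the 30th percentile over probe sets, were left out.

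Values were taken as log2(intensity + 16), which understates changes of dim genes. The comparison of the groups used limma 3.58.1 in R 4.3.3 (moderated variances with a trend on mean signal, no covariates). Benjamini-Hochberg adjustment ran over 13938 genes with a threshold of 0.05. The residual degrees of freedom were 5, and 12.6 after moderation. On simulated data with the spread of these 13938 genes, the fit recovered 22.5% of 200 genes with a 1.5-fold change for this comparison. It recovered 74.5% where the change was 2-fold and 99% where it was 4-fold. Noise was drawn independently for each gene and array, without shifts shared by the genes of an array, so recovery here may be lower. Exact permutation tests (Python 3.11.15 with pandas 2.3.3) used the difference of mean log2 values over 35 splits. The t quantile of the 95% intervals came from scipy 1.17.1. Figures were drawn with matplotlib 3.10.9.

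Members and lists were chosen with earlier results of these data known, so no list was tested as a set. Named genes are the 9 members and Mbtps1, and up to 4 genes per pathway list by smallest p. Also named are the 5 genes nearest in pattern to Egr1, Nr4a1 and Nab2. Skipped there by the form of the symbol were gene models, clones, small RNAs and any symbol of a capital letter followed by a digit. That last form takes in some protein-coding genes, which were therefore not candidates. Others named were chosen after their values were seen. Alternatives changed the filter, the offset, the normalization, the variance model, the weight of arrays, the probe set rule and the arrays used, or added a replicate block.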

Additional observations from a re-analysis of the deposited data

Results flagged for a closer look

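Among 29 sets of 4 control values checked (the 9 members, Mbtps1 and the 19 list means), 1 had an array far from the other 3. The mean log2 signal of macrophage and monocyte markers was 8.55 in control 4, against 9.07 to 9.13 in the other controls, a gap of 0.897 of the range that lies above the critical value for 4 values. Chance flags about 1 in 20 such groups. No member had such an array among its controls.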

How the results depend on the processing

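Over 21 other settings the count of members lower at an unadjusted p under 0.05 was 3 in 17, 4 with median centring and without control 2 or control 3, where Nr4a2 joined, and 2 with unmoderated variances, where Nr4a1 was lost. Egr1 ranged from -1.53 to -1.06, Egr2 from -1.30 to -0.92 and Nr4a1 from -1.08 to -0.55. Genes past the adjusted threshold numbered 0, but 1 with median centring, 1 with robust variances, 5 with array weights and 2 without controls 3 and 4. Leaving out 1 array gave 0 to 5, with 5 without control 4 and 1 without knockout 2. With the replicate number as a block there were 62 genes, and Egr1 (-1.07, adjusted p = 0.0145) and Egr2 (-0.94, adjusted p = 0.0155) passed, which they did in no other setting. The labels do not pair the mice, and same-numbered arrays did not deviate together (correlations of 0.07, 0.15 and -0.53), so the block has no basis. Control 4 has no partner and drops out of it. Members near 0 changed sign: Egr3 was 0.0069 with the block and 0.0069 without control 4, and Nab2 was -0.0027 after quantile normalization and -0.0012 without control 3. Leaving out 1 array gave -0.20 to 0.0069 for Egr3 and -0.0012 to 0.13 for Nab2. The cause was not tested. Egr4 and Nr4a3 were under the filter at the 50th percentile and have no value there. The gaps of the 3 pairs with the smallest p (Egr1 and Egr2 against Egr3, Egr2 against Nab2) kept their direction under offsets of 1 and 64, quantile normalization and each array left out, between -1.36 and -0.85, alternatives added after seeing the data.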

Other observations

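Markers of other cell types in which EGR factors are known to act were also read. Some had signal near the low-signal limit of 69.7, so these values do not show that the cells were present. Of 7 Schwann cell markers, the lineage in which Egr2 directs myelination, 4 were measured. Sox10 read 63.5 to 76.4 in controls, about the low-signal limit, and 103 to 106 in knockouts. Each knockout lay above each control, as in 5.22% of all genes. Its log2 fold change was 0.49 (SE 0.12, limma adjusted p = 0.559), opposite in sign to Egr2. Pmp22, a myelin gene, read 612 to 848 and 522 to 559 (log2 fold change -0.39, SE 0.14, limma adjusted p = 0.694). Each of its knockouts lay under each control, as in 2.76% of all genes. Mbp (0.12) and S100b (-0.16) did not pass, and the list's mean log2 signal was 7.62 to 7.91 in controls and 7.71 to 7.81 in knockouts. Skeletal muscle markers, from the tissue whose spindles need Egr3, had list means of 6.79 to 7.17 in controls and 6.90 to 7.0 in knockouts. Controls 1 and 4 were the highest, as in Egr3. The same held for Egr1, Egr2, Nr4a2, Nr4a3, Nab2 and the osteocyte marker mean, so this order is not particular to Egr3. T cell markers, from cells in which Egr2, Egr3 and NR4A factors restrain activation, had list means of 6.73 to 7.08 and 6.95 to 7.19. The part of these cells in the members' values was not tested.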
